A study of Mus musculus with 13 samples.

Results

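The genes described here are 9 members of the Nodal, BMP and Id pathways of mouse embryonic stem (ES) cells: the ligands Nodal and Bmp4, the coreceptor Tdgf1, the extracellular inhibitors Lefty1 and Lefty2, the intracellular inhibitor Smad7, and the Id genes Id1, Id2 and Id3. They were taken by symbol from the 26797 genes listed for the replicate libraries, and the same identifiers were read among the 49671 genes of a joint count table. All 9 members were found in both and passed the filter on low values.

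Nodal and the BMPs are secreted ligands of the TGF-beta family that bind paired type I and type II serine-threonine kinase receptors. Nodal acts through the coreceptor TDGF1 (Cripto) and SMAD2 and SMAD3, and it induces its own inhibitors, the LEFTY proteins, in a feedback loop. BMP4 acts through SMAD1, SMAD5 and SMAD9 and induces the Id genes, whose proteins hold back basic helix-loop-helix factors. In serum-grown mouse ES cells, BMP signals and Id proteins are known to act with leukemia inhibitory factor to hold back differentiation, and Lefty1 and Lefty2 are abundant there.

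Polyadenylated RNA had been sequenced from 3 libraries of WT cells of the AinV15 line and 3 libraries of Dnmt1-/- cells, a line homozygous for a null allele (C allele) of the maintenance DNA methyltransferase. These 2 groups are different cell lines, so the genotype and the line cannot be told apart. A joint table held 1 library of each of 4 conditions: WT, Dnmt1-/-, and AinV15 cells that carried doxycycline-inducible dCas9-OGA or dCas9-OGA-D242A. OGA is a bacterial O-GlcNAcase, which removes the sugar O-GlcNAc from proteins; the D242A substitution abolishes its activity, dCas9 is a Cas9 that does not cut, and both constructs came with 4 sgRNAs that target the U3 region of IAP retrotransposons. All cells were grown on gelatin in serum with leukemia inhibitory factor. Per the study's methods, the construct cells had been drug-selected and were induced with doxycycline before harvest. The WT and Dnmt1-/- cells were untreated, so beside WT a construct and these treatments cannot be told apart. The labels tie no sample to the WT and Dnmt1-/- columns of the joint table, and nothing states that the libraries came from separate cultures, so p-values measure only the spread between these libraries.

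The replicate libraries held between 26846275 and 37112247 reads on genes, and the single libraries between 18693531 and 25097983. Dnmt1 RNA averaged 336 ± 24.1 normalised counts in WT and 75.5 ± 2.02 in Dnmt1-/- (SD, n = 3), a log2 fold change of -2.14, and in the single libraries it was at 61.9 cpm in Dnmt1-/- and at 376 to 549 cpm in the other 3. The 9 detected ES cell markers summed to between 5406 and 5520 normalised counts in WT and between 5016 and 5280 in Dnmt1-/-, with 1 of the 9 higher and 4 lower. The 7 fibroblast markers (collagens, Dcn, Lum, Postn and Thy1) summed to 1304, 1540 and 1072 in the WT libraries and to 267, 281 and 251 in the Dnmt1-/- libraries. All 7 were lower in Dnmt1-/-, none was at 0, and in the single libraries their sum was between 30.7 and 61.3 cpm (reads scaled to library size). The 7 primitive endoderm markers summed to between 143 and 146 in WT and between 204 and 213 in Dnmt1-/-, and 6 of the 7 were higher in Dnmt1-/- and 0 lower, where 35.8% of all genes tested were higher. Of the 7 trophoblast markers 6 were tested, 5 of them higher and 1 lower, with sums of 59.8 to 61.5 in WT and 82.9 to 91.6 in Dnmt1-/-, and the 6 mesendoderm markers summed to 8.87 to 9.63 and 17.0 to 17.4, with 3 higher and 1 lower of 5 tested. In the single libraries these 3 lists summed lower in Dnmt1-/- than in WT. Trophoblast markers were at 43.3 against 139 cpm and mesendoderm markers at 12.7 against 22.4. Primitive endoderm markers were at 52.7 cpm in WT and, in Dnmt1-/-, at the lowest level of the 4 libraries, below the 20.4 cpm of D242A. The 7 detected 2-cell-like markers (mainly Zscan4 genes, Zfp352 and Tcstv genes, a list added after seeing the data) summed to 513, 485 and 481 in the WT replicates and to 190, 216 and 183 in the Dnmt1-/- replicates. Among the single libraries they summed to 26.2 cpm in WT and to between 0.483 and 1.25 cpm in the other 3. The part of these marker lists in the members' changes was not tested.

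In the WT replicate libraries, Tdgf1 was the most abundant member, at 297 ± 13.0 normalised counts per kb of exonic length (SD, n = 3). Lefty1 followed at 94.2 ± 1.40 per kb. Id3 (75.2 ± 9.14 per kb), Nodal (68.8 ± 1.69) and Id1 (66.6 ± 4.42) came next and lay within each other's spread. Lower levels per kb were found for Lefty2 (39.2 ± 0.851), Smad7 (28.0 ± 0.594), Bmp4 (14.1 ± 0.928) and Id2 (7.77 ± 0.708). In Dnmt1-/- cells Tdgf1 was again first, at 367 ± 19.1 per kb, and Nodal second, at 77.4 ± 4.54. Lefty1 was the second lowest of the 9 there, at 12.6 ± 1.60 per kb, and Id3 stood at 25.2 ± 0.851. Id1 (54.2 ± 3.58 per kb) and Lefty2 (54.1 ± 2.15) did not differ beyond their spread in Dnmt1-/- cells.

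Promoter sequences from RefSeq (GRCm38.p6, 250 bases before to 50 after the transcription start) were matched for 5 of the 9 members: Nodal, Bmp4, Tdgf1, Id2 and Id3. Those of both ligands and of the Id gene with the largest change are shown because DNMT1 maintains methylation at CpG dinucleotides, which are the capitals. The Nodal window lies on the plus strand at chr10:61417722-61418021, the Bmp4 window on the minus strand at chr14:46390620-46390919, and the Id3 window on the plus strand at chr4:136143572-136143871.
Nodal: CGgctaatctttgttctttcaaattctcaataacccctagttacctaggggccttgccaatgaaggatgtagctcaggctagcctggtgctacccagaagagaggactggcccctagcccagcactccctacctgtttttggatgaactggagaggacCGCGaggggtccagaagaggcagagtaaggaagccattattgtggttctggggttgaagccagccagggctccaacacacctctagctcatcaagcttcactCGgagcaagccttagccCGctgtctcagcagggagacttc
Bmp4: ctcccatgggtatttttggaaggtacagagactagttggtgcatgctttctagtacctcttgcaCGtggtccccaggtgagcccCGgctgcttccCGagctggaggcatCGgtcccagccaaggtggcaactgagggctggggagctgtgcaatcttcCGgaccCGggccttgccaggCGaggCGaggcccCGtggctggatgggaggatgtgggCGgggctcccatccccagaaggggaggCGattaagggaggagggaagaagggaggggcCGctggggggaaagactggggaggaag
Id3: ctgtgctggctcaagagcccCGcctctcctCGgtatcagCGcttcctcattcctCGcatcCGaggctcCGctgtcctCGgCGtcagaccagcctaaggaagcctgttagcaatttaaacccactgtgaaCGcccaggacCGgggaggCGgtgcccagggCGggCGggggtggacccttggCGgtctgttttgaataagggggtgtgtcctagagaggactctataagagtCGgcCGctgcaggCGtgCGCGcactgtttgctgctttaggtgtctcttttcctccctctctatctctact
The Nodal window held 5 CpGs (observed over expected 0.23), that of Bmp4 12 (0.42) and that of Id3 19 (0.70). Among all 32851 RefSeq promoters of this length the median was 7 CpGs with an observed over expected value of 0.38. The windows of Tdgf1 and Id2 held 7 and 21 CpGs. The methylation of these windows was not analysed here.

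Letters of known binding motifs were searched on both strands of the same 5 windows. The SMAD box CAGACA, found in 21.0% of all promoters, was in none of the 5, nor was the palindrome GTCTAGAC (0.213% of all promoters) or the FOXH1 motif AATNCACA (3.60%). The GC-rich SMAD element GGCGCC was found once, in the Id2 window, and in 11.9% of all promoters. The E-box CANNTG, the site of helix-loop-helix factors, was found in the windows of Tdgf1, Id2 and Bmp4 and in 72.3% of all promoters. Its special case CACGTG, which CANNTG also counts, was in the Bmp4 window and in 7.15% of all promoters.

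Loss of Dnmt1 went with opposite changes of the Nodal feedback inhibitors in the replicate libraries: Lefty1 fell 7.47-fold while Lefty2 rose. Id3 fell 2.99-fold, and Id1 and Id2 fell less. The ligands Nodal and Bmp4 and the coreceptor Tdgf1 rose modestly, and Smad7 was not called. In all, 4 members were higher and 4 lower at an adjusted p under 0.05 (limma on log2 of the normalised count plus 0.5, Benjamini-Hochberg over 17297 genes). Of all genes tested 35.8% were higher and 35.4% lower, so a share of this size is near the background; 2 of the 9 members, beside 13.1% of all genes, were called with a change of 2-fold or more. The groups did not overlap for 8 of the 9 members and for 73.3% of all genes. The median log2 fold change was -0.02 over the members and 0.01 over all genes. In bulk RNA, fewer cells of a type and less RNA per cell cannot be told apart.

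**Figure D1:**
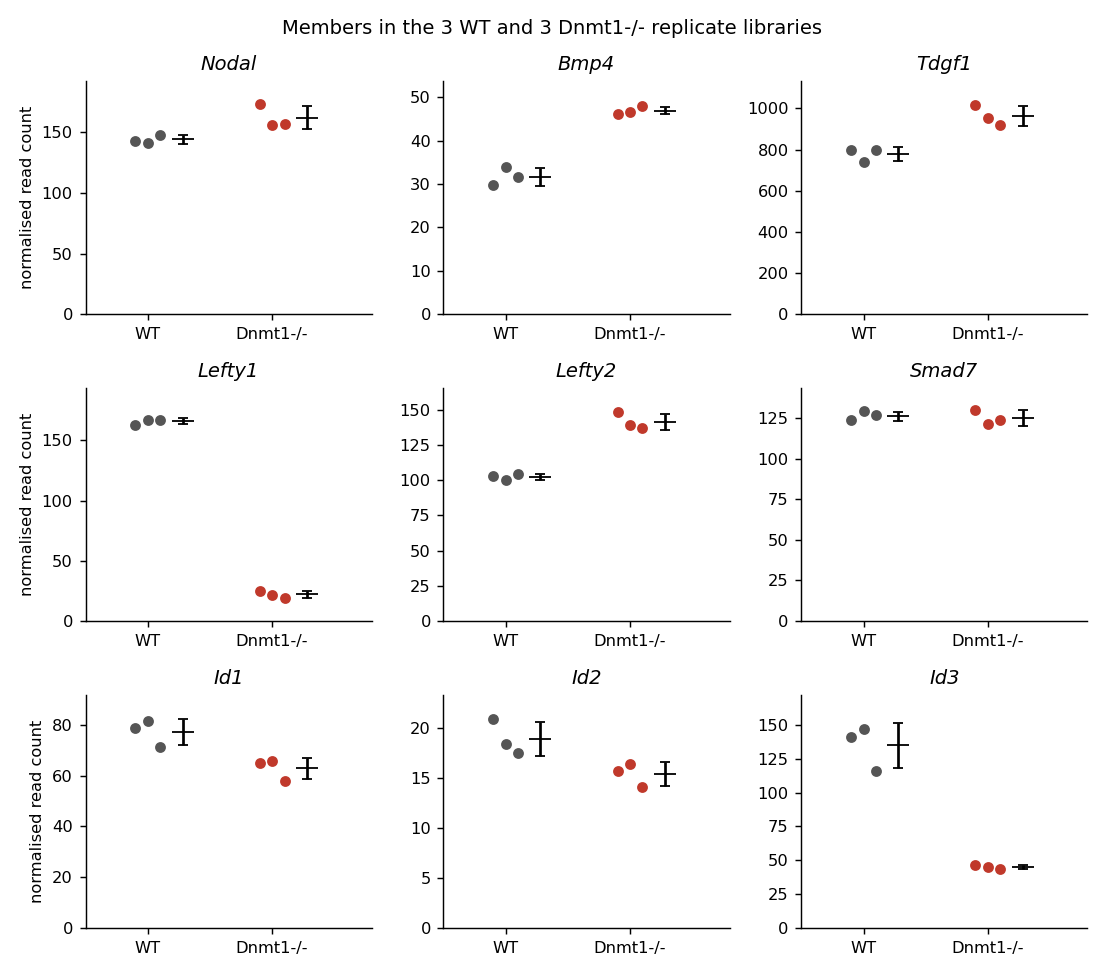
Normalised read count (y axis, from 0) of each member in the 3 WT and 3 Dnmt1-/- replicate libraries; each coloured point is a library, and the black bar is the group mean with its SD. Lefty1 dropped from between 163 and 167 to between 19.5 and 25.1 and Id3 from between 116 and 147 to between 43.5 and 46.5, whereas the Smad7 libraries of the groups overlapped.

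Nodal (chr10:61417972-61425338, plus strand) stood at 143, 141 and 148 normalised counts in the WT libraries and at 173, 156 and 157 in the Dnmt1-/- libraries. Every Dnmt1-/- library was above every WT library, with 1 of them higher than the others. The log2 fold change was 0.17 (SE 0.05, limma adjusted p = 0.005). Without Dnmt1-/- replicate 1 it was 0.12 and no longer called, at an adjusted p of 0.067.

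Bmp4 (chr14:46383520-46390669, minus strand) was at 29.7, 33.9 and 31.5 in WT and at 46.1, 46.6 and 47.9 in Dnmt1-/-. The groups were well apart, and the Dnmt1-/- libraries were close to each other. The log2 fold change was 0.56 (SE 0.06, limma adjusted p = 1.0e-08), a 1.48-fold rise. Bmp4 overlaps Gm15217 on the other strand, which averaged 0.182 in WT and 0.322 in Dnmt1-/- cells; the kit is given as not stranded in the labels and as stranded in the study's methods, so the share of its reads in the Bmp4 count is unknown.

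Tdgf1 (chr9:110939603-110946158, minus strand), whose protein presents Nodal to its receptors, was at 798, 739 and 797 in WT and at 1016, 955 and 917 in Dnmt1-/-. The log2 fold change was 0.31 (SE 0.06, limma adjusted p = 3.8e-05), with no overlap. A processed pseudogene, Tdgf1-ps1, rose alongside, by 0.39 on the log2 scale (SE 0.06, limma adjusted p = 1.8e-06), at 60.1 in WT and 78.9 in Dnmt1-/-. Reads of Tdgf1 and of this near-identical copy may have been split between them, so the Tdgf1 level is uncertain; in the single libraries the pseudogene held 6085 to 9383 reads and Tdgf1 4106 to 6665.

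Lefty1 (chr1:180935022-180938400, plus strand) was at 163, 167 and 167 in the WT libraries and at 25.1, 21.9 and 19.5 in the Dnmt1-/- libraries. It had the largest change of the 9 members, with a log2 fold change of -2.88 (SE 0.07, limma adjusted p = 2.5e-21). Leaving out any 1 library kept it between -2.97 and -2.79. Lefty2 (chr1:180893108-180899103, plus strand), which lies upstream of Lefty1, was at 103, 100.0 and 104 in WT and at 148, 139 and 137 in Dnmt1-/-. All Dnmt1-/- libraries were higher, by a log2 fold change of 0.46 (SE 0.05, limma adjusted p = 9.5e-09).

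Within each library, the ratio of Lefty1 to Lefty2 per kb was therefore between 2.35 and 2.48 in WT and between 0.211 and 0.253 in Dnmt1-/-. A ratio within a library does not depend on the scaling between libraries. The transcripts of the 2 genes share 281 stretches of 50 bases, which is 17.9% of those of Lefty1 and 11.6% of those of Lefty2, and reads from these could be counted for either or left out. No other pair of members shared a stretch of this length. Summed, the Lefty genes were at 265, 267 and 271 in WT and at 173, 161 and 156 in Dnmt1-/-.

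Other genes within 100 kb of Lefty1, a window chosen after the data were seen, were read as well. Tmem63a, which starts 7.3 kb downstream, fell by 1.44 on the log2 scale (SE 0.09, limma adjusted p = 1.2e-12), and Ephx1 by 0.95 (SE 0.07, limma adjusted p = 4.7e-11). Sde2, which lies beyond Lefty2, fell by 0.28 (SE 0.05, limma adjusted p = 3.2e-05). Lefty2 itself rose, as given above. In the single libraries the log2 ratios of Dnmt1-/- to WT were 1.08 for Tmem63a, -0.24 for Ephx1 and -0.40 for Sde2. The opposite sign of Tmem63a there was not tested.

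Smad7, which blocks type I receptors of the family and is itself induced by their signals, was at 124, 129 and 127 in WT and at 130, 121 and 124 in Dnmt1-/-. Its libraries overlapped, and the log2 fold change of -0.02 (SE 0.05, limma adjusted p = 0.75) missed the threshold. The gene lies on the plus strand at chr18:75367529-75395935.

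Id1 (chr2:152736251-152737410, plus strand) was at 78.8, 81.5 and 71.5 in WT and at 64.9, 65.7 and 58.1 in Dnmt1-/-. The groups did not overlap, and the log2 fold change was -0.29 (SE 0.06, limma adjusted p = 1.0e-04). Id2 (chr12:25093799-25097140, minus strand), the least abundant member, was at 20.9, 18.4 and 17.5 in WT and at 15.7, 16.4 and 14.1 in Dnmt1-/-. Its log2 fold change was also -0.29 (SE 0.08, limma adjusted p = 0.003), with the lowest WT library just above the highest Dnmt1-/- library.

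Id3 (chr4:136143497-136145755, plus strand) fell the most of the Id genes. It was at 141, 147 and 116 in WT and at 46.5, 45.2 and 43.5 in Dnmt1-/-, and its log2 fold change was -1.56 (SE 0.07, limma adjusted p = 2.9e-16). The WT libraries were spread wider than those of Dnmt1-/-, with WT replicate 3 lowest. The ratio of Id1 to Id3 per kb within a library rose from between 0.855 and 0.951 in WT to between 2.06 and 2.24 in Dnmt1-/-. In contrast, the ratio of Id1 to Id2 stayed between 7.94 and 9.30 in WT and 8.40 and 8.71 in Dnmt1-/-.

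The WT library with the lowest Id3 and Id1 was also the one with the lowest sum of fibroblast markers (1072), and the WT library with the highest of both had the highest sum (1540). Id2 did not have this order: its highest WT value, 20.9, was in the library with a sum of 1304. Id genes are expressed by fibroblasts as well as by ES cells, and the part of fibroblast RNA in the falls of the Id genes in the replicate libraries was not tested. In the single libraries, where the same markers summed to 30.7 cpm in Dnmt1-/- and 49.0 cpm in WT, Id1, Id2 and Id3 were also lower in Dnmt1-/-, as given further on.

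The rest of the pathway was read from 9 lists of 71 genes, of which 64 passed the filter; 2 were not among the listed rows (Gdf1 and Rgmb), and Bmp5, Bmp15, Acvr1c, Cfc1 and Cer1 were below it. In Dnmt1-/- cells 16 of the 64 were higher, 33 lower and 15 not called, with a median log2 fold change of -0.23, beside the 35.8% higher and 35.4% lower of all genes. Falls were the more frequent among ligands of the Nodal and activin branch (0 higher and 3 lower of 3), coreceptors and proprotein convertases (0 and 5 of 5) and secreted or membrane antagonists (0 and 8 of 10). The sum of fibroblast markers was lower in the same Dnmt1-/- libraries (251 to 281 against 1072 to 1540), and its part in these counts was not tested.

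Among the ligands, Inhba, the activin A subunit, fell from between 72.9 and 105 normalised counts in WT to between 15.8 and 16.2 in Dnmt1-/-, with a log2 fold change of -2.42 (SE 0.08, limma adjusted p = 5.2e-18). Of the 7 BMP ligands tested 4 were higher and 2 lower, beside 35.8% and 35.4% of all genes. Bmp8b, at between 0.819 and 1.27 in WT and between 2.47 and 3.55 in Dnmt1-/-, rose by 1.06 on the log2 scale (SE 0.15, limma adjusted p = 9.0e-07). Gdf6 dropped from between 62.1 and 84.8 to between 10.0 and 10.5, a log2 fold change of -2.80 (SE 0.08, limma adjusted p = 2.9e-19). In the single libraries Inhba had 2 to 4 reads per library and Gdf6 0 to 10, and Bmp8b was lower in Dnmt1-/- than in WT (63 against 212 reads, log2 ratio -1.25).

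Of 10 receptors tested, 2 were higher and 5 lower, beside 35.8% and 35.4% of all genes. Bmpr1a, the main type I receptor for BMP4, rose by 0.23 on the log2 scale (SE 0.05, limma adjusted p = 2.8e-04), and Bmpr1b fell by 1.97 (SE 0.14, limma adjusted p = 4.0e-12) from a WT level of at most 4.23. Rgma, a BMP coreceptor, had the largest fall among coreceptors and convertases, at -1.52 (SE 0.14). Of the SMAD proteins, the Nodal mediators moved apart: Smad2 rose by 0.25 (SE 0.05, limma adjusted p = 1.8e-04) and Smad3 fell by 1.01 (SE 0.09, limma adjusted p = 1.8e-10). In the single libraries the log2 ratios of Dnmt1-/- to WT were 0.91 for Bmpr1a, 0.11 for Smad2 and -0.66 for Smad3, of the same sign as in the replicates, and Rgma was within counting error of 0 (interval -0.45 to 0.44). Bmpr1b had 51 reads in Dnmt1-/- and 38 in the deeper WT library, the opposite direction, at under 100 reads summed. Smad1 was the other member of the SMAD list to fall, and Smad4, Smad5, Smad6 and Smad9 were not called.

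The 9 SMAD partners and corepressors were split, with 5 higher and 3 lower, beside 35.8% and 35.4% of all genes. Zfp423, a DNA-binding partner of BMP SMADs, had the largest rise, at 0.47 (SE 0.06, limma adjusted p = 2.2e-07), and Skil, a corepressor, the largest fall, at -0.46 (SE 0.05, limma adjusted p = 1.8e-08). Grem1, a secreted BMP antagonist, fell from between 165 and 205 normalised counts to between 12.5 and 13.8, a log2 fold change of -3.80 (SE 0.07, limma adjusted p = 3.0e-23), and it had 2 to 22 reads in the single libraries. Of the 9 target genes 3 were higher and 3 lower, near the same shares of all genes. Eomes, a T-box factor induced by Nodal, rose by 1.08 on the log2 scale (SE 0.10, limma adjusted p = 1.2e-09) at levels of 9.82 or less, and Atoh8, a BMP target, fell by 1.99 (SE 0.14, limma adjusted p = 8.9e-12). Of the helix-loop-helix partners of Id proteins, Tcf3 (E2A) rose by 0.23 (SE 0.05, limma adjusted p = 1.7e-04) and Tcf4 (E2-2) fell by 1.19 (SE 0.06, limma adjusted p = 1.8e-15). In the single libraries, 4 of these genes had the opposite sign in Dnmt1-/- against WT: the log2 ratio was -0.74 for Eomes, -0.50 for Zfp423, 0.89 for Skil and -0.47 for Tcf3, a difference between the sets that was not tested. Tcf4 was at -0.05 there. Id4, the remaining Id gene, was at -0.27 (SE 0.14) and was not called, with an adjusted p of 0.090 by limma.

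**Figure D2:**
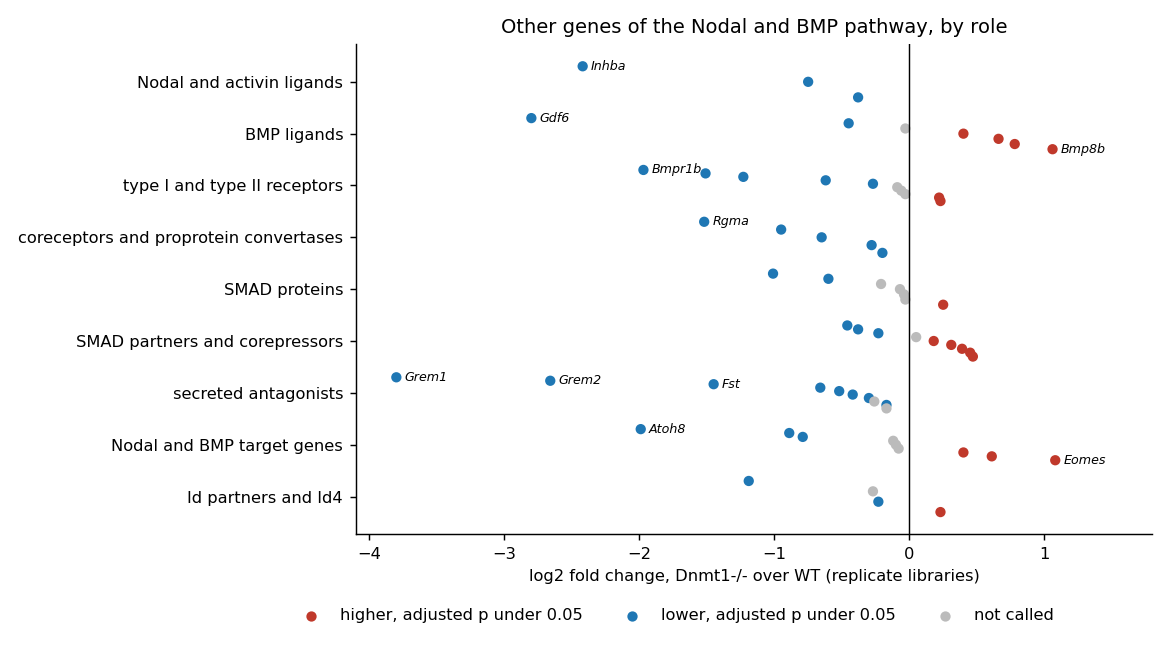
Log2 fold change of Dnmt1-/- over WT (x axis) for the 64 other pathway genes tested in the replicate libraries, 1 point per gene in rows by role; colours show which passed an adjusted p under 0.05. The farthest points to the left were Grem1 at -3.80 and Gdf6 at -2.80, and the farthest to the right was Eomes at 1.08.

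The second question of the study, what the removal of O-GlcNAc at IAP elements does, set dCas9-OGA against the inactive dCas9-OGA-D242A. With dCas9-OGA, Bmp4 was 3.79-fold and Id1 2.30-fold higher, whereas Lefty1 was 4.28-fold and Lefty2 2.27-fold lower. The other Id members, Id2 and Id3, were slightly lower, at log2 ratios of -0.27 and -0.36. Each condition had 1 library, so no test was possible, and intervals below are exact 95% Poisson intervals that cover counting error only. Among the 9 members, 2 were higher and 2 lower by 2-fold or more, beside 4.88% and 7.22% of the 12722 genes compared. The median log2 ratio was 0.07 over the members and 0.03 over those genes. Beside the single WT library, Bmp4, Id1, Lefty1 and Lefty2 were at log2 ratios of -1.55, -1.85, 1.96 and 1.93 with the inactive D242A. With dCas9-OGA the same genes were nearer to WT, at 0.35, -0.65, -0.12 and 0.75. Marker sums also differed between the constructs: with dCas9-OGA and D242A, ES cell markers were at 6489 and 3905 cpm, primitive endoderm markers at 38.5 and 20.4, and trophoblast markers at 66.3 and 114. Mesendoderm markers were at 6.33 and 4.43 cpm and fibroblast markers at 40.8 and 61.3, and the part of these lists in the ratios was not tested.

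Bmp4 was at 85.9 cpm (82.3 to 89.7) with dCas9-OGA and at 22.7 cpm (20.8 to 24.6) with dCas9-OGA-D242A, a log2 ratio of 1.90. The single WT library held it at 67.4 cpm and the single Dnmt1-/- library at 20.4 cpm (18.4 to 22.5), an interval that overlaps that of D242A. Id1 was likewise low in the libraries of D242A and Dnmt1-/-, at 163 cpm with dCas9-OGA, 71.1 with D242A, 257 in WT and 80.7 in Dnmt1-/-. So was Smad7, at 83.0 cpm with dCas9-OGA, 45.7 with D242A, 94.2 in WT and 56.0 in Dnmt1-/-. For all 3 genes the levels in WT and dCas9-OGA were above those in D242A and Dnmt1-/-.

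The Lefty genes had the opposite order. Lefty1 was at 43.9 cpm (41.3 to 46.6) with dCas9-OGA, 188 (183 to 194) with D242A, 47.9 in WT and 229 in Dnmt1-/-. Lefty2 was at 77.1 cpm (73.7 to 80.6) with dCas9-OGA, 175 (170 to 180) with D242A, 45.5 in WT and 386 in Dnmt1-/-. Both were low in the libraries of WT and dCas9-OGA cells and high in those of D242A and Dnmt1-/- cells. The genes of chromosome 1 as a whole had a median log2 ratio of 0.33 between dCas9-OGA and D242A, so that relative to their chromosome Lefty1 was at -2.42 and Lefty2 at -1.51. Lefty1 was not uniformly ahead of Lefty2: their ratio per kb was 0.846 with dCas9-OGA, 1.60 with D242A, 1.56 in WT and 0.883 in Dnmt1-/-.

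**Figure D3:**
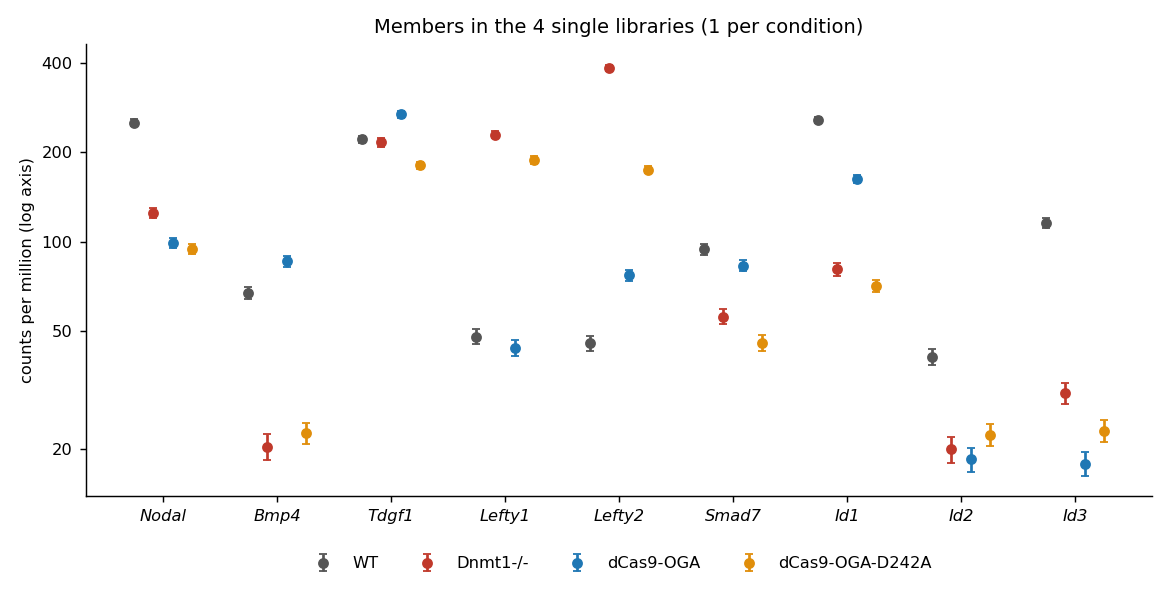
Cpm (y axis, log scale) of each member in the 4 single libraries, 1 per condition; bars are exact 95% Poisson intervals of the count. Lefty1 and Lefty2 were low in WT and dCas9-OGA (43.9 to 77.1 cpm) and high in Dnmt1-/- and D242A (175 to 386 cpm), and Bmp4 was at 67.4 and 85.9 cpm in the first pair and at 20.4 and 22.7 cpm in the other.

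Nodal itself did not differ between the constructs beyond counting error, at 99.3 cpm with dCas9-OGA and 94.5 with D242A (log2 ratio 0.07, interval -0.01 to 0.15). Tdgf1 was 1.48-fold higher with dCas9-OGA, at 269 against 181 cpm. Id2 (18.5 against 22.4 cpm) and Id3 (17.9 against 23.1 cpm) were slightly lower with dCas9-OGA, at log2 ratios of -0.27 and -0.36, while Id1 was higher. The ratio of Id1 to Id3 per kb was 14.1 with dCas9-OGA, 4.76 with D242A, 3.44 in WT and 4.03 in Dnmt1-/-.

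Of 44 other pathway genes with at least 100 reads over both libraries, 7 were higher by 2-fold or more with dCas9-OGA and 0 lower by as much, with a median log2 ratio of 0.08. Inhbb, the activin B subunit, was 13.4-fold higher, with 7677 reads against 572. The type I receptor gene Acvrl1 (ALK1), which serves BMP9 and BMP10, was 8.16-fold higher (562 against 69 reads), and Pcsk6, a convertase that cleaves Nodal, was 2.68-fold higher (4917 against 1834). Zfp423 was 2.25-fold higher, the BMP antagonist Chrd 2.36-fold (139 against 59 reads) and Bmp8a 2.95-fold (100 against 34 reads). Beside the single WT library, Inhbb and Acvrl1 were 6.13-fold and 3.57-fold higher with dCas9-OGA and 2.19-fold and 2.28-fold lower with D242A. Pcsk6, Bmp8a and Zfp423 were 2.29-fold, 3.01-fold and 3.43-fold lower with D242A than in WT, and with dCas9-OGA they were at 1.17, 0.979 and 0.655 times the WT level. Chrd was 1.69-fold higher with dCas9-OGA than in WT and 1.39-fold lower with D242A. In the remaining lists the largest ratios were those of Dusp9 (1.99-fold), Tcf4 (1.67-fold) and Smad5 (1.54-fold), all higher with dCas9-OGA.

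Both construct libraries were set beside the single WT library as well; these comparisons share that library with each other and with the one that follows. With D242A, 2 members were at least 2-fold higher (Lefty1 and Lefty2) and 5 lower (Nodal, Bmp4, Smad7, Id1 and Id3), beside 12.5% and 8.28% of all genes compared. With dCas9-OGA, 0 were higher and 3 lower (Nodal, Id2 and Id3), beside 14.0% and 9.78%. Nodal was at 252 cpm in WT and therefore lower with either construct, at log2 ratios of -1.34 with dCas9-OGA and -1.41 with D242A. Id3, at 116 cpm in WT, had a log2 ratio of -2.66 with dCas9-OGA and of -2.30 with D242A, and it was the member with the largest ratio in both comparisons. This WT library also had the highest sums of the 4 single libraries for 2-cell-like (26.2 cpm), primitive endoderm (52.7), trophoblast (139) and mesendoderm (22.4) markers, and their part in these ratios was not tested.

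The joint table held a further comparison of Dnmt1-/- with WT, at 1 library each. Among the members, 2 exceeded WT by 2-fold or more in Dnmt1-/- and 5 fell short of it by as much, beside 10.5% and 6.89% of all genes compared. Lefty2 was 8.48-fold and Lefty1 4.79-fold higher. Id3 was 3.74-fold lower, Bmp4 3.30-fold, Id1 3.19-fold, Id2 2.05-fold and Nodal 2.02-fold. Nodal and Id2 lay close to the 2-fold limit, with log2 ratios of -1.01 (-1.08 to -0.95) and -1.02 (-1.21 to -0.86). Tdgf1 was at 216 cpm in Dnmt1-/- and 221 in WT, and Smad7 was 1.68-fold lower.

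Set beside the replicate libraries, which were normalised apart from the joint table, 4 members had the same direction and 3 the opposite one. Lefty2 was higher in Dnmt1-/- in both (log2 0.46 in the replicates and 3.07 in the single libraries). Id1 (-0.29 and -1.67), Id2 (-0.29 and -1.02) and Id3 (-1.56 and -1.89) were lower in both. Lefty1 was lower in the replicates (-2.88) and higher in the single libraries (2.25), and Nodal (0.17 and -1.01) and Bmp4 (0.56 and -1.70) were higher in the replicates and lower in the single libraries. Tdgf1 (0.31 and -0.03) and Smad7 (-0.02 and -0.74) each had a value near 0 in 1 of the sets. The difference between the 2 sets was not tested, since the single libraries have no replicates.

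**Figure D4:**
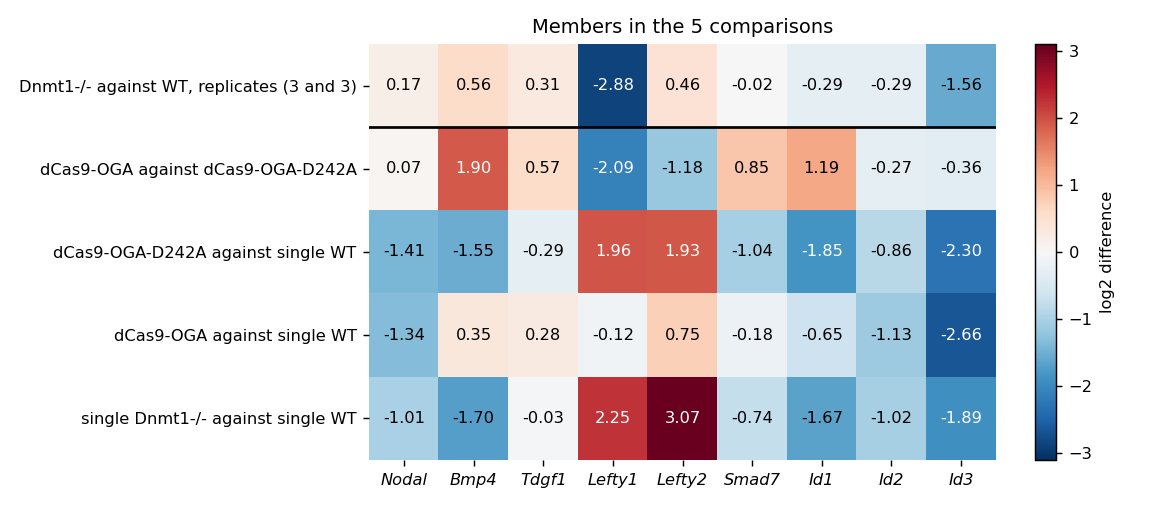
Log2 difference of each member (columns) in the 5 comparisons (rows); red is higher and blue lower in the condition named first, and the black line parts the replicate libraries from the single ones. Id3 was negative in all 5 rows, from -0.36 to -2.66, while Lefty1 ran from -2.88 to 2.25.

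The gene with the most similar pattern to a member was sought among 11251 genes, by the Euclidean distance over 6 log2 differences (each Dnmt1-/- replicate and each of the other 3 single libraries against WT). Tdgf1 had the closest neighbour, Nsl1 at a distance of 0.13, followed by Id2 (Guca1a, 0.23), Smad7 (Eid2b, 0.27), Nodal (Bcat1, 0.30), Id1 (AA414768, 0.38) and Id3 (Vgll3, 0.60). Lefty2 was nearest to Tdrd12, at 0.72. Lefty1 had no close neighbour, with Trh, which encodes thyrotropin-releasing hormone, at 1.41. The differences share the WT libraries of their table and are not independent.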

How the data were processed

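Polyadenylated RNA of mouse ES cells was analysed in 6 replicate and 4 single libraries; the 5 ChIP-seq samples were not used here. Per the labels and the study's methods, reads were mapped to mm10 and counted with featureCounts 1.5.0 on Ensembl genes; HISAT2 2.1.0 is named for the replicate libraries and TopHat2 2.0.11 for the construct libraries. For the replicates the authors deposited a signal in which each gene's reads are scaled to the library, here called the normalised count. Because the file headers were shifted against the data, values were read by column position. All values were whole multiples of 1 read within a tolerance of 0.05 (100.0%), so that reads could be recovered. For the single libraries the authors deposited raw counts per gene. The WT and Dnmt1-/- columns of that joint file named a group and no sample.

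The members, the pathway lists and the marker lists were chosen with earlier results of these data known. Groups came from the labels. Replicate values were compared as log2(value + 0.5) with limma 3.58.1 (trend) over 17297 genes that passed edgeR's expression filter on the recovered reads, with Benjamini-Hochberg adjustment at 0.05. Alternatives were DESeq2 1.42.0 and edgeR 4.0.16 on recovered reads, TMM scaling, pseudocounts of 0.1 and 5, no filter, a replicate block, each library left out, and chromosome medians removed. Log2 fold changes of the replicates are on the log2(value + 0.5) scale, which understates those of low genes. Folds of the replicates are plain ratios of the group means. Single libraries were scaled with TMM and compared as log2(cpm + 0.5) without a test, among genes with at least 100 reads summed; folds of single libraries are the plain ratio of cpm, and intervals are exact Poisson intervals (95%). The precision of each value is that of its depth, given with the results. Genes named beyond the members were the largest rise and fall among called genes of each list, and the largest ratio of dCas9-OGA to dCas9-OGA-D242A of each list. The nearest gene by pattern was named as well, that of Bmp4 and 1 neighbour of Lefty1 not being reported here; neighbours of Lefty1, the 2-cell-like list and Smad1, Id4 and the uncalled SMAD genes were named after their values were seen. Positions came from GENCODE vM21 on GRCm38, which placed 26679 of 26797 and 49326 of 49671 gene identifiers. The fits were tested on simulated data. Computations ran in R 4.3.3 and Python 3.11.15 (SciPy 1.17.1, matplotlib 3.10.9, NumPy 2.4.6, pandas 2.3.3).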

Additional observations from a re-analysis of the deposited data

Results flagged for a closer look

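In 3 of the 9 members the single Dnmt1-/- library differed from the single WT library in the direction opposite to that of every replicate library, by more than counting error. Lefty1 was 2.25 higher on the log2 scale in the single Dnmt1-/- library and lower in all 3 Dnmt1-/- replicates. Nodal was at -1.01 and Bmp4 at -1.70 in the single library, and both were higher in all 3 replicates. These differences between the sets were not tested. The sets were normalised apart, and the cause was not tested.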

How the results depend on the processing

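The counts of members (4 higher and 4 lower) and of pathway genes (16 and 33) in the replicate libraries stayed within 1.5 times under every alternative run. With 1 library left out, 3 to 4 members were higher and 4 lower, and 15 to 16 pathway genes were higher and 30 to 34 lower. On the recovered reads edgeR called 6026 genes higher and 6226 lower and DESeq2 5665 and 5739, beside 6196 and 6128 by limma. The replicate numbers did not pair the libraries (correlations of same-numbered deviations of 0.07, -0.02 and 0.07 over 17297 genes); with a replicate block 4 members were higher and 4 lower, and 16 and 32 pathway genes. Of the members' 126 alternative fold changes in the replicates 1 lost its call, that of Nodal without Dnmt1-/- replicate 1. Log2 fold changes of some low pathway genes depended more on the setting. Bmpr1b, Rgma and Bmp8b were at -0.65, -0.69 and 0.36 with a pseudocount of 5. With DESeq2 they were at -2.69, -1.74 and 1.35. Values near 0 changed sign in 2 genes: with 1 library left out Smad7 was between -0.05 and 0.01 and Smad5 between -0.06 and 0.02, and Smad5 was at 0.04 with chromosome medians removed; neither was called. In the single libraries, the 5 members lower in Dnmt1-/- became 3 with total gene counts, with DESeq2 size factors, with a pseudocount of 5 and with chromosome medians removed, since Nodal and Id2 lie at the 2-fold limit. The other counts of members kept within 1.5 times, and no member's ratio moved by more than 0.39. Of the members' 216 alternative ratios in the single libraries, 31 lay outside the counting interval of the main ratio. These intervals therefore do not cover the choice of processing. The single libraries have no replicates, which limits them to counting error.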
